A study of Mus musculus with 20 samples.

Results

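OT-I CD8 T cells that received thapsigargin (TG) and were stimulated with anti-CD3 were compared, over all genes, with OT-I cells that received TG and stayed resting. OT-I cells carry a transgenic T cell receptor (TCR) for an ovalbumin peptide. The cells here also carried Cas9 and a control guide (genotype Ctrl) and were kept in IL-2 (10 ng/mL), IL-7 (0.5 ng/mL) and IL-15 (1 ng/mL). The comparison rested on 4 of the 20 libraries of the series, 2 of anti-CD3 TG cells and 2 of resting TG cells. Both groups had 50 ng/mL TG for 8 hours, and the first also had plate-bound anti-CD3 at 2.5 µg/mL for 24 hours. How the 8 hours of TG lay within the 24 hours of anti-CD3 is not given in the sources used here. The same comparison with dimethyl sulfoxide in place of TG (2 anti-CD3 vehicle and 2 resting vehicle libraries) is set beside it for some genes and lists. Where no vehicle value is printed, the effects can still differ. The vehicle comparison shares no library with the TG comparison.

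Anti-CD3 cross-links the CD3 chains of the TCR complex. Downstream kinases open calcium entry, which drives NFAT through calcineurin, and also start the MAPK to AP-1 and NF-kB branches. In CD8 T cells these branches lead to cytokines, cytotoxic granules, growth and division. TG inhibits the SERCA pumps, which return calcium to the endoplasmic reticulum (ER). Without them the store drains, calcium in the cytosol rises with no receptor signal, and protein folding in the ER is disturbed. The comparison therefore asks how stimulated and resting cells differ when both have received a SERCA inhibitor. Anti-CD3 lasted 24 hours and TG 8 hours, so much of the stimulation lay outside the TG treatment. A change under TG below can thus include effects of anti-CD3 from the time without TG.

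Depth was 11577923 and 12877673 counts in the anti-CD3 TG libraries and 12522986 and 11022274 in the resting TG libraries. The vehicle libraries held 17462770 and 13521582 counts with anti-CD3 and 12799661 and 11028101 at rest. Levels are counts scaled to library size (CPM) with factors from the trimmed mean of M values, with 2 libraries a group. A change is the log2 ratio of anti-CD3 over resting, printed with ± a standard error (SE). This SE was worked back from the change and its test statistic. For genes with few counts in a group it can lie below counting error and overstate the precision. An example is Il6, with 11 counts at rest with TG. Adjusted p values come from edgeR's quasi-likelihood test, with the Benjamini-Hochberg method applied to all 13432 genes tested, and a gene was called at 0.05. Nothing states that the 2 libraries of a group came from separate cultures, so p values measure the spread between libraries, which may be technical. That spread was estimated in large part across genes. In bulk RNA, fewer cells of a type and less RNA per cell cannot be told apart.

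The labelled cell type was checked first. All 9 T cell identity genes (the CD3 chains, Cd8a, Cd8b1, Trac, Cd2 and Lck) were present, with a summed level of 3760 and 3810 CPM in anti-CD3 TG libraries, against 5560 and 5770 in resting TG libraries. 22 markers of other cells summed to 33.1 and 37.6 CPM with anti-CD3 and TG, against 75.2 and 70.0 at rest with TG. Most of that was Trdc, the gamma-delta TCR constant gene, at 29.8 and 32.5 CPM against 69.6 and 63.0. 11 of the 22 had no count in anti-CD3 TG libraries and 9 had none in resting TG libraries. Ms4a1 (B cells), Clec9a and Siglech (dendritic cells), Ncr1 (NK cells) and Hbb-bs (erythroid cells) had none in any of the 8 libraries. 6 of the 22 were tested, of which 1 rose (0 with DESeq2) and 2 fell with TG. Mitochondrially encoded mRNA summed to 13200 and 14500 CPM against 11800 and 11600, with 6 of 7 tested genes higher and 0 lower (0 lower also at an unadjusted p of 0.05 by edgeR and by DESeq2). The part of these differences in the results below was not tested.

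Anti-CD3 changed most genes under TG. It raised 4296 genes (32.0% of those tested) and lowered 4280 (31.9%), together 63.8%. By at least 2-fold it raised 756 (5.63%) and lowered 1353 (10.1%), and the median log2 change over all genes was -0.005. The libraries of both groups did not overlap for 81.0% of genes, so a call alone is common and the size of a change carries more. Counts of list members under TG below are to be read against these shares, 32.0% up and 31.9% down. For vehicle counts the shares of all genes were 35.3% up and 39.1% down. For differences between TG and vehicle they were 26.7% positive and 25.2% negative. Atp2a2, which encodes the SERCA2 pump that TG blocks, had 596 and 604 CPM in anti-CD3 TG libraries, against 361 and 368 in resting TG libraries (0.72 ± 0.035, adjusted p = 1.2e-25). Atp2a3, the gene of the SERCA3 pump, had 74.4 and 72.4 CPM with anti-CD3 and TG, against 132 and 122 at rest with TG (-0.8 ± 0.048, adjusted p = 1.8e-21). The pump genes thus moved in opposite directions, as they did with vehicle (1.58 for Atp2a2 and -2.55 for Atp2a3). Both differences, TG minus vehicle, were called (-0.87 and 1.76).

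Of 20 tested secreted cytokine genes 12 rose and 6 fell under TG, 11 and 5 of them by at least 2-fold, with a median change of 1.96. Il1a (chr2:129299610-129309972 on GRCm38), the gene of the alarm cytokine IL-1 alpha, had 23.8 and 23.7 CPM in anti-CD3 TG libraries and no count in resting TG libraries. Against a floor of 3 counts over the group, this is at least 197-fold higher (adjusted p = 2.6e-30). Il6 (chr5:30013114-30019981), a cytokine better known from myeloid cells, had 69.0 and 67.6 CPM with anti-CD3 and TG, against 0.602 and 0.258 at rest with TG (7.24 ± 0.17, adjusted p = 4.2e-40). Il21 (chr3:37222759-37232636), a helper cytokine, had 66.9 and 73.8 CPM against 1.58 and 1.46 (5.52 ± 0.13, adjusted p = 3.3e-39). Il2 (chr3:37120523-37125959), the T cell growth factor, had 31.2 and 29.5 CPM against 0.602 and 0.775 (5.45 ± 0.19, adjusted p = 3.9e-32). For all 4 genes the lower anti-CD3 library stood far above the higher resting one. All 4 had no count in resting vehicle libraries, and lower levels in anti-CD3 vehicle than in anti-CD3 TG libraries.

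Il24, a cytokine of the IL-10 family, had 171 and 173 CPM in anti-CD3 TG libraries, against 7.6 and 8 in resting TG libraries, a 22.1-fold rise (4.46 ± 0.066). Il22, of the same family, had 4.43 and 5.2 CPM with anti-CD3 and TG and 1 count in all at rest with TG, and the ratio had a 95% exact binomial interval of 21.2 to 4800. Such intervals and floors cover counting error only. Ifng (chr10:118441046-118445892) encodes interferon gamma, the main cytokine of CD8 effector cells, and was the most counted gene of the anti-CD3 TG libraries. It had 10400 and 10200 CPM there, against 1480 and 1500 in resting TG libraries, a 6.91-fold rise (2.79 ± 0.033, adjusted p = 5.1e-55). With vehicle, Ifng had 4710 and 4870 CPM with anti-CD3, against 9.01 and 9.79 at rest (9.0 ± 0.051). The highest level was thus in anti-CD3 TG cells although the change there was smaller, and the difference of log2 changes (TG minus vehicle) was -6.21 ± 0.062 (adjusted p = 2.7e-58). Il3, a growth factor for myeloid cells, had 639 and 629 CPM with anti-CD3 and TG, against 106 and 105 at rest with TG (2.59 ± 0.047). Il13, Lif and Osm also rose, by 2.74, 1.36 and 1.43.

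Among 9 tested chemokine genes 6 rose and 1 fell, with a median change of 2.08 under TG. Ccl3 (chr11:83647844-83649355), the gene of MIP-1 alpha, had 1680 and 1660 CPM in anti-CD3 TG libraries, against 361 and 378 in resting TG libraries (2.18 ± 0.039, adjusted p = 4.8e-39). Ccl4, which encodes MIP-1 beta, had 693 and 673 CPM against 224 and 221 (1.62 ± 0.038). Ccl5, the gene of RANTES, had 101 and 98.2 CPM against 12.2 and 11.6 (3.06 ± 0.077). Ccl9 had 83.5 and 82.6 CPM against 1.28 and 1.72, a 55.6-fold rise (5.8 ± 0.12). Ccl5 reached a like level with vehicle, 133 and 131 CPM with anti-CD3 against 11.7 and 12.1 at rest. The 1 chemokine that fell was Cxcl10, an interferon-induced chemokine at low level, with 0.0852 and 0.536 CPM against 1.96 and 1.55 (-2.42 ± 0.49, adjusted p = 2.6e-05).

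**Figure D1:**
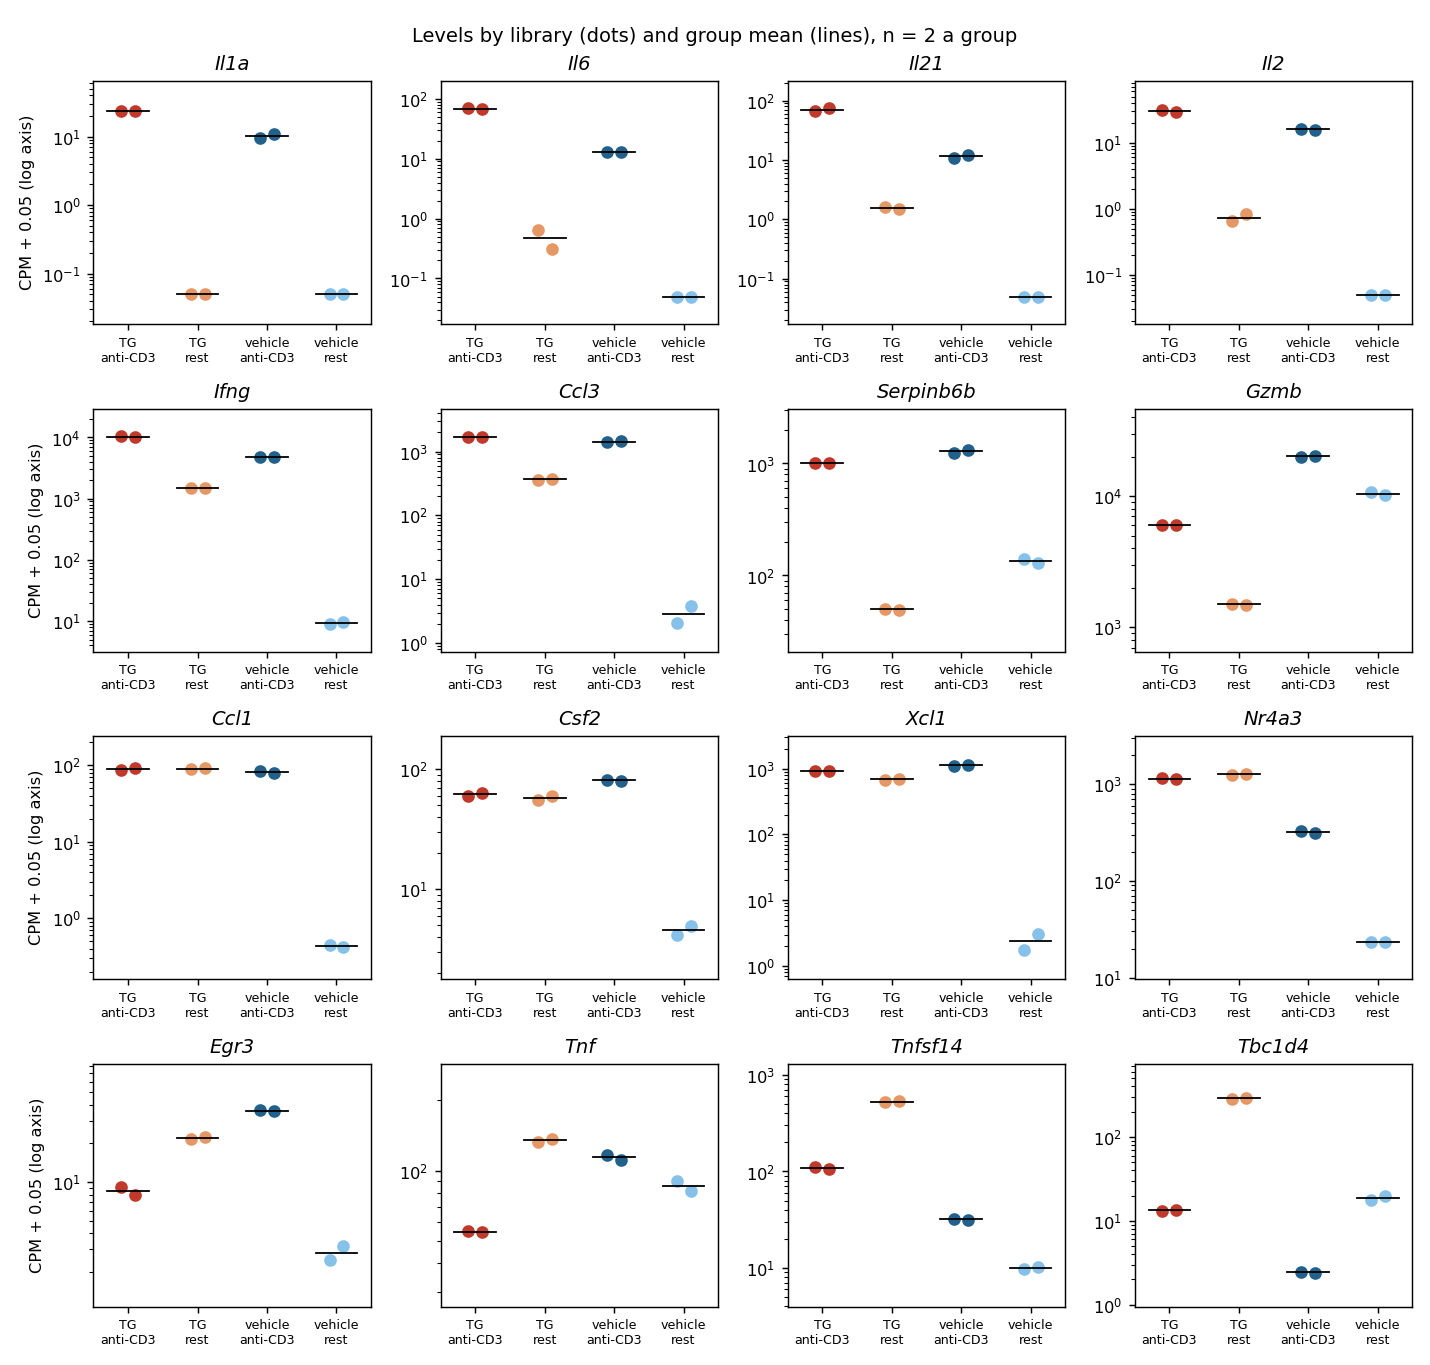
Level of 16 genes in each library (dots) with the group mean (lines), in CPM plus 0.05 on a log axis, for TG anti-CD3, TG resting, vehicle anti-CD3 and vehicle resting cells, 2 libraries each. Il1a had no count in either resting group, Ccl1 was level between the TG groups (85.7 and 91.4 against 88.1 and 91.4 CPM), and Tnfsf14 and Tbc1d4 were highest in TG resting cells.

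Promoters are shown for 5 genes that rose. They are the named gene with the largest rise (Il1a) and the genes of a fixed panel that rose most (Il2, Ifng, Ccl3, Ctla4). Gzmb was next in the panel and was picked by the same rule. Its promoter was left out afterwards, because the sequence at its RefSeq start was not found in its annotated transcripts. Each is the 250 bases before the transcription start, from RefSeq on GRCm38.p6, written 5′ to 3′ on the gene's own strand. Il1a is on the minus strand (chr2:129309973-129310222), as are Il2 (chr3:37125955-37126204) and Ccl3 (chr11:83649379-83649628). Ifng (chr10:118440796-118441045) and Ctla4 (chr1:60908775-60909024) are on the plus strand. Capitals mark matches on either strand to TGANTCA (AP-1) and GGAAAA (the core letters of NFAT sites), which do not overlap each other.
Il1a: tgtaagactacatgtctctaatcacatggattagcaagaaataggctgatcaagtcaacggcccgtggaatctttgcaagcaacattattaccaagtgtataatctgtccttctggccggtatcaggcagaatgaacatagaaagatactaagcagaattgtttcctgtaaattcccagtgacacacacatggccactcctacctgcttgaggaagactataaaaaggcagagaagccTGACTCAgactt
Il2: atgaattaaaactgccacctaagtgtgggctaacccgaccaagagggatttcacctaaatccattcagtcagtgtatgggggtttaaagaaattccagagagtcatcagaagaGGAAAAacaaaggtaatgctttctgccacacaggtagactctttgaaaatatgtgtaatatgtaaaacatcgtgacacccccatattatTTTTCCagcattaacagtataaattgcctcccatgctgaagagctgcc
Ifng: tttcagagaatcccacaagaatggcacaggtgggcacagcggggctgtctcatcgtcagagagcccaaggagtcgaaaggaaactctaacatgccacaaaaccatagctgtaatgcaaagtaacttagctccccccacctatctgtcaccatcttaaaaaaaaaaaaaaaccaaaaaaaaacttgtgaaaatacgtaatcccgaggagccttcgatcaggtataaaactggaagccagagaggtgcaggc
Ccl3: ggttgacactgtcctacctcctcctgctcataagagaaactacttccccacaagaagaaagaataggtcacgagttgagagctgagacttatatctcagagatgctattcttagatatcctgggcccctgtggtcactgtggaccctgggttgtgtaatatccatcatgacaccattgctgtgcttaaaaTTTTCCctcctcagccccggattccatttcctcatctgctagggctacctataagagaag
Ctla4: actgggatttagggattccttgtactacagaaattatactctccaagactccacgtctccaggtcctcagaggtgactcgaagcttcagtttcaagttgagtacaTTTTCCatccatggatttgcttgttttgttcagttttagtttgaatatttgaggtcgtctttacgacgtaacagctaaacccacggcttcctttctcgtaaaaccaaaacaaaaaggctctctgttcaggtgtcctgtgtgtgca

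Il1a held 1 AP-1 match, which begins 12 bases before the start. Il2 held 2 NFAT cores, at 137 and 48 bases before the start, and Ccl3 and Ctla4 held 1 each, at 60 and 145 bases. No match lay in the Ifng window, which says only that these letters are not in it. Of 756 genes raised at least 2-fold 521 had a RefSeq promoter, and 8.6% of these held the AP-1 letters and 19.8% the NFAT core. Of 1353 genes lowered at least 2-fold 822 had one, with 7.7% and 18.9%. All 9652 tested genes with a promoter had 4.3% and 18.5%, and all 32851 promoters 6.7% and 20.4%. A match is a description of the letters, not of binding.

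Other genes with large rises were no cytokines. Ccn1, which encodes a secreted matrix protein, had 41.8 and 39.3 CPM in anti-CD3 TG libraries, against 0.527 and 0.43 in resting TG libraries (6.37 ± 0.19). Ptprn, a phosphatase-like protein of secretory granules, had 28.6 in both against 0.226 and 0.516 (6.27 ± 0.22). Timp1, an inhibitor of matrix metalloproteinases, had 21.4 and 20.6 CPM against 0.301 and 0.602 (5.54 ± 0.22). Idi2, an isopentenyl-diphosphate isomerase, had 18.2 and 21.5 CPM against 0.301 and 0.258 (6.1 ± 0.26), and Dthd1 had 20.4 and 24 CPM against 0.301 and 0.258 (6.26 ± 0.25). Sox5os3, annotated as antisense to Sox5, had 9.2 and 12.4 CPM and only 3 counts at rest (ratio interval 30.6 to 441). Strand use in counting is not given, so its reads cannot be told from those of the sense gene. Ccn1 reached only 3.09 and 3.03 CPM in anti-CD3 vehicle libraries, the other genes of this group between 2.12 and 29.4 CPM.

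Cytotoxic granule genes mostly rose: 14 of 22 rose and 5 fell under TG, against 11 and 11 with vehicle. Gzmb (chr14:56258838-56262260), the gene of granzyme B, the main killing protease, had 6000 and 6010 CPM in anti-CD3 TG libraries, against 1510 and 1490 in resting TG libraries. This 4.01-fold rise (2.00 ± 0.03, adjusted p = 1.6e-49) was larger than that with vehicle, 19900 and 20400 CPM against 10700 and 10200 (0.94 ± 0.029). The difference was 1.06 ± 0.041 (adjusted p = 2.6e-29), yet both TG groups lay below both vehicle groups. Gzme had 200 and 192 CPM against 38.4 and 37.4 under TG (2.37 ± 0.052), and Gzmd 525 and 521 against 158 and 162 (1.71 ± 0.04). Prf1, which encodes the pore protein perforin, had 269 and 271 CPM against 96.7 and 101 (1.45 ± 0.04).

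The serpin genes that protect cells from granzymes rose more. Serpinb6b had 1020 CPM in both anti-CD3 TG libraries, against 50.1 and 49.3 in resting TG libraries, a 20.5-fold rise (4.36 ± 0.045, adjusted p = 2.7e-57). Serpinb9, the inhibitor of granzyme B, had 1180 and 1200 CPM against 98.1 and 95.4 (3.62 ± 0.04), with a vehicle change of 3.53 ± 0.038. Its paralog Serpinb9b had 49.7 and 51 CPM against 0.903 and 0.775 (5.88 ± 0.14). These families have close copies and multi-mapped reads are not counted by HTSeq, so the values of Serpinb6b, Serpinb9b, Gzmd and Gzme are uncertain. Among the genes that fell, Ctsw, a cathepsin of cytotoxic cells whose exons overlap Fibp, had 50.8 and 53.5 CPM against 230 and 236 (-2.16 ± 0.05). Fasl, the gene of the Fas ligand, had 66.9 and 70.2 CPM against 148 and 151 (-1.12 ± 0.051).

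Costimulatory genes split, with 10 of 22 up and 9 down under TG, beside 32.0% up and 31.9% down over all genes. Tnfrsf4, the gene of OX40, had 321 and 331 CPM in anti-CD3 TG libraries, against 100 and 106 in resting TG libraries (1.66 ± 0.042). Tnfrsf8, which encodes CD30, had 20.1 and 22.6 CPM against 3.84 and 2.75 (2.68 ± 0.12). It was much higher with vehicle, at 726 and 737 CPM with anti-CD3 against 91.7 and 86.2 at rest. Icos, a costimulatory receptor of the CD28 family, had 262 and 267 CPM against 122 and 115 under TG (1.15 ± 0.044, adjusted p = 4.8e-30). With vehicle Icos had 208 and 221 CPM against 235 and 218, groups that overlap, and the difference of 1.23 ± 0.06 was called (adjusted p = 1.2e-24). Tnfsf14, the gene of LIGHT, went the other way. It had 110 and 106 CPM with anti-CD3 and TG, against 519 and 534 at rest with TG (-2.28 ± 0.041), and 32.4 and 31.6 against 9.65 and 10.2 with vehicle (1.69 ± 0.09). Tnfsf9, which encodes the 4-1BB ligand, had 9.2 and 8.65 CPM against 32.3 and 32.4 (-1.86 ± 0.11).

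Inhibitory receptor genes also split, with 7 of 17 up and 8 down under TG, beside 32.0% up and 31.9% down over all genes. Ctla4 (chr1:60887000-60915832), the receptor that competes with CD28, had 772 and 783 CPM in anti-CD3 TG libraries, against 182 and 170 in resting TG libraries, a 4.42-fold rise (2.14 ± 0.038, adjusted p = 2.1e-46). With vehicle Ctla4 had 501 and 499 CPM against 186 and 191, and the difference was 0.74 ± 0.053. Cd200, a ligand that restrains myeloid cells, had 376 and 365 CPM against 62.3 and 62.5 under TG (2.57 ± 0.044). Pdcd1, the gene of PD-1, had 98.5 and 96.5 CPM with anti-CD3 and TG, against 155 and 163 at rest with TG (-0.71 ± 0.046), whereas with vehicle it had 40.8 and 40.7 against 23.1 and 24.3. Havcr2, which encodes TIM-3, followed the same pattern, with 457 and 454 CPM against 712 and 700 (-0.63 ± 0.035). Lag3 was nearly level, 1150 and 1090 CPM against 1020 and 1050 (0.11 ± 0.034). It was 0.09 and not called without replicate 1 of either TG group. Nt5e, the gene of CD73, which makes adenosine, had 4.69 and 5.05 CPM against 97.4 and 97.7 (-4.32 ± 0.098), and Cd160 had 52.5 and 55.6 against 248 and 245 (-2.19 ± 0.048).

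For several immediate targets of TCR and calcium signals the resting TG level stood well above the resting vehicle level, a step not tested here, and anti-CD3 added little. Ccl1, a chemokine for CCR8, had 85.7 and 91.4 CPM in anti-CD3 TG libraries, against 88.1 and 91.4 in resting TG libraries (-0.02 ± 0.051, adjusted p = 0.79). Vehicle libraries had 83.1 and 79.7 CPM against 0.402 and 0.369. Csf2, the gene of GM-CSF, had 59.6 and 63.8 CPM against 55 and 59.8 with TG (0.11 ± 0.059, adjusted p = 0.1) and 81 and 80 against 4.1 and 4.89 with vehicle. The TG groups of Csf2 overlap. Without replicate 1 of the anti-CD3 TG group its change was 0.18, and without replicate 2 of the resting TG group 0.17, and it was called in both. Xcl1, a chemokine for cross-presenting dendritic cells, had 913 and 906 CPM against 678 and 701 with TG (0.4 ± 0.036) and 1110 and 1120 against 1.69 and 3.05 with vehicle (8.9 ± 0.073). The differences were -7.7 for Ccl1, -4.06 for Csf2 and -8.5 for Xcl1.

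The nuclear receptor genes of the NR4A family, induced by TCR signals, moved in different directions under TG and rose with vehicle. Nr4a1 had 135 and 127 CPM in anti-CD3 TG libraries, against 93.8 and 98.7 in resting TG libraries (0.44 ± 0.048). Nr4a3 fell slightly, with 1160 and 1130 CPM against 1250 and 1290 (-0.14 ± 0.035), both above the anti-CD3 vehicle level of 331 and 312. Nr4a2 fell, with 162 and 157 CPM against 268 and 257 (-0.72 ± 0.04). Over all NR4A and TOX factors 3 of 7 rose and 4 fell. With vehicle the changes were 5.12 for Nr4a1, 4.42 for Nr4a2 and 3.78 for Nr4a3, and every difference was called.

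The zinc finger genes Egr2 and Egr3, targets of NFAT and MAPK signals, fell. Egr2 had 58.4 and 61.4 CPM in anti-CD3 TG libraries, against 109 and 111 in resting TG libraries (-0.87 ± 0.056), while with vehicle it had 44 and 39.5 against 1.93 and 1.94. Egr3 had 9.12 and 7.96 CPM against 21.8 and 22.3 with TG (-1.37 ± 0.11) and 36.3 and 35.4 against 2.41 and 3.14 with vehicle. Irf4, a factor that scales with TCR signal strength, had 909 and 945 CPM against 1270 in both resting TG libraries (-0.45 ± 0.033). Tnf, the gene of tumor necrosis factor, had 54.9 and 54.5 CPM against 133 and 137 with TG (-1.3 ± 0.054), and 117 and 111 against 90.4 and 81.5 with vehicle (0.41 ± 0.051). Nrgn, which encodes the calmodulin-binding protein neurogranin, had 6.39 and 4.51 CPM against 113 and 116 with TG, a fall of 21.1-fold, and 3.15 and 2.42 against 0.885 and 1.29 with vehicle. Each of these fell below its resting TG level while it rose with vehicle.

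Not every early factor followed. Of 21 tested EGR, AP-1 and early factors 9 rose and 4 fell under TG, against 16 and 3 with vehicle. Fosl1, an AP-1 subunit, had 10.4 and 10.2 CPM in anti-CD3 TG libraries, against 2.48 and 2.32 in resting TG libraries (2.09 ± 0.19). Batf3 had 56.7 and 44.6 CPM against 18.1 and 16.4 (1.54 ± 0.09), and Batf, its partner in effector cells, had 42.1 and 37.6 against 14.7 and 17.6 (1.31 ± 0.088). Batf3 rose by 4.08 with vehicle (difference -2.54) and Batf by 0.69 (difference 0.62). Myc, the driver of growth, had 346 and 323 CPM against 236 and 235 (0.51 ± 0.039), a smaller change than with vehicle (1.47 ± 0.039). MAPK feedback inhibitors had 8 of 14 up and 4 down (2 down with DESeq2). Dusp4 had 120 and 115 CPM against 44.2 and 39.3 (1.48 ± 0.057), and Dusp6, which inactivates ERK, had 35.4 and 39.3 against 77 and 80.6 (-1.07 ± 0.06).

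Subunits and inhibitors of NF-kB were higher in 11 of 14 and lower in 3 under TG, against 13 and 0 with vehicle (0 also at an unadjusted p of 0.05 by edgeR and by DESeq2). Rel, a subunit induced in T cells, had 213 and 221 CPM in anti-CD3 TG libraries, against 117 and 107 in resting TG libraries (0.95 ± 0.044). Tnfaip3, which encodes the inhibitor A20, had 411 and 431 CPM against 182 and 192 (1.17 ± 0.039), and Traf1 had 529 and 519 against 257 and 260 (1.02 ± 0.036). The 3 that fell were Nfkbid, Relb and Birc3. Nfkbid, an atypical inhibitor of the IkB family, had 22.2 and 24.9 CPM against 70.9 and 69.7 (-1.58 ± 0.074), and Relb and Birc3 changed by -0.78 and -0.44. 13 of the 14 differences to vehicle were negative and called.

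TCR pathway genes fell: 20 of 23 genes of the TCR complex and its proximal kinases were lower and 2 higher under TG, with a median of -0.53. Cd3e, a chain of the complex that the antibody binds, had 331 and 338 CPM in anti-CD3 TG libraries, against 573 and 590 in resting TG libraries (-0.8 ± 0.036). Cd8a had 949 and 959 CPM against 1830 and 1890 (-0.97 ± 0.034), while with vehicle it had 617 and 634 against 653 and 650 (difference -0.91, adjusted p = 1.6e-23). Zap70, the kinase recruited to the complex, had 263 and 245 CPM against 472 and 479 (-0.9 ± 0.04). Among those that rose, Cd6, a receptor that tunes TCR signals, changed by 0.6. T cell identity genes, most of which are in the same list, had 7 of 9 lower and 1 higher.

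Genes of calcium handling, calcineurin and NFAT fell in 18 of 22, and 3 rose. Rcan1, an NFAT target that restrains calcineurin, had 21.4 CPM in both anti-CD3 TG libraries, against 52.6 and 55.5 in resting TG libraries (-1.33 ± 0.083, adjusted p = 6.7e-21). In vehicle cells it had 7.75 and 8.48 CPM against 6.59 and 8.13, where the groups overlap. Nfatc1 had 185 and 191 CPM against 374 and 390 (-1.02 ± 0.039), and Nfatc2 28.5 and 28.2 against 38.3 and 32.6 (-0.33 ± 0.077). Nfatc2 changed by -0.2 and was not called without replicate 1 of the resting TG group. Itpr1, the gene of a channel that releases calcium from the ER, had 407 and 420 CPM against 157 and 147 (1.44 ± 0.043). The 3 that rose were Itpr1, Atp2a2 and Ppp3r1.

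Genes tied to anergy, the unresponsive state after calcium signals without costimulation, fell in 10 of 13 and 0 rose by edgeR or DESeq2, with 1 higher at an unadjusted p of 0.05. Rnf128, which encodes the ubiquitin ligase GRAIL, had 1.88 and 1.76 CPM in anti-CD3 TG libraries, against 44.6 and 47.3 in resting TG libraries, a fall of 25.2-fold (-4.65 ± 0.14, adjusted p = 1.3e-34). Vehicle cells had 2.22 and 1.97 CPM against 14.1 and 10.7. Ikzf3, the gene of Aiolos, had 146 and 153 CPM against 426 and 434 (-1.52 ± 0.043). Dgkz, a kinase that removes diacylglycerol, had 198 and 190 CPM against 409 and 426 (-1.1 ± 0.038), and Dgka had 251 and 262 against 488 and 479. Cblb, a ligase of the same kind, did not pass the test (619 against 638 CPM as group means, -0.04).

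Cytokine receptors fell in 14 of 20 and 5 rose. Il2ra, the gene of the high-affinity IL-2 receptor chain, had 2840 and 2870 CPM in anti-CD3 TG libraries, against 1310 and 1320 in resting TG libraries (1.11 ± 0.031, adjusted p = 8e-37). With vehicle it had 5600 and 5750 against 1340 and 1290, and the difference was -0.99 ± 0.043. Il21r and Il12rb2 rose by 1.03 and 0.99. Il18rap and Il18r1, the chains of the IL-18 receptor, fell by 2.38 and 2.07 on the log2 scale. Il18rap had 70.2 and 71.1 CPM against 374 and 362. Il1rl1, the IL-33 receptor, had 21.1 and 23 CPM against 57.1 and 54.6 with TG (-1.34 ± 0.078), and 14 and 14.5 against 4.99 and 4.43 with vehicle (1.58 ± 0.14).

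Of 18 SOCS, STAT and PIM genes 9 rose and 3 fell. Stat5a, which carries IL-2 signals, had 238 and 232 CPM in anti-CD3 TG libraries, against 40.4 and 41.9 in resting TG libraries (2.51 ± 0.049). Its exons overlap Stat3, which had 1460 CPM in both against 765 and 796 (0.9 ± 0.033), so part of either count could belong to the other. Socs3, a feedback inhibitor, had 44.7 and 42.3 CPM against 14.9 and 16.6 (1.47 ± 0.088).

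**Figure D2:**
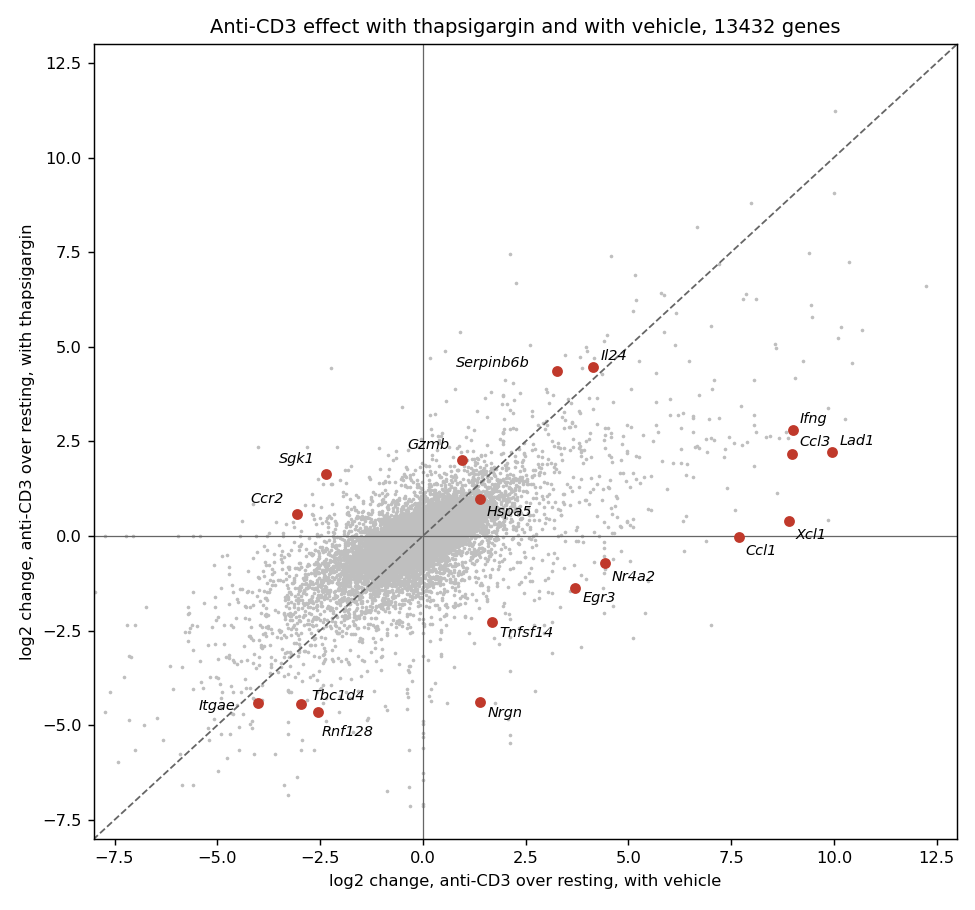
Log2 change with anti-CD3 over resting under TG (vertical) against that with vehicle (horizontal) for 13432 genes, each a grey dot at its fitted value, with named genes in red and a dashed line of equality. Ccl1 (-0.02 against 7.68) and Xcl1 (0.4 against 8.9) lie far right near the horizontal axis, Egr3 and Nrgn below it, and Sgk1 (1.65 against -2.36) and Ccr2 (0.59 against -3.06) upper left.

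Ribosome biogenesis genes rose, by less than with vehicle. All 25 tested members rose under TG, with a median of 0.78, against 25 and a median of 1.54 with vehicle. All 25 differences were negative and called. Rrp12, an export factor of ribosomal subunits, had 126 and 117 CPM in anti-CD3 TG libraries, against 41.9 and 43.9 in resting TG libraries (1.5 ± 0.054). Nolc1, a nucleolar chaperone, had 227 and 233 CPM against 113 and 119 with TG (0.99 ± 0.044), and 484 and 496 against 129 and 119 with vehicle (1.98 ± 0.042). The resting levels of Nolc1 were alike, and the anti-CD3 levels were not. Cytosolic tRNA synthetase genes rose in 18 of 20, with a median of 0.4, and 0 fell by edgeR, also at an unadjusted p of 0.05, or by DESeq2. Rars, which charges arginine tRNA, had 223 and 222 CPM against 111 and 112 (1 ± 0.044).

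Amino acid transporter genes rose in 7 of 12 and fell in 3. Slc7a11, the cystine importer, had 38.9 and 36.2 CPM in anti-CD3 TG libraries, against 11.4 and 12.1 in resting TG libraries (1.67 ± 0.11). Slc7a3, an importer of arginine, had 153 in both against 63 and 63.5 (1.27 ± 0.051). Slc7a5, the leucine importer, had 1050 and 1000 CPM against 680 and 703 (0.57 ± 0.034). Slc7a6, Slc1a5 and Slc38a2 fell, by 0.27, 0.22 and 0.14 on the log2 scale.

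Cholesterol synthesis genes rose in 19 of 22 under TG, 5 of them by at least 2-fold, with a median of 0.73. By edgeR 0 fell, also at an unadjusted p of 0.05, as by DESeq2. Idi1, an isomerase of the mevalonate pathway, had 12.3 and 13.1 CPM in anti-CD3 TG libraries, against 2.26 and 4.05 in resting TG libraries (2.03 ± 0.18). Fdps, a synthase of the same pathway, had 21.1 and 24 against 9.33 and 9.81 (1.24 ± 0.11). With vehicle Idi1 and Fdps rose by 1.2 and 0.65, and the differences of 0.84 and 0.59 were called. Fdps had 72.3 and 69.7 CPM with anti-CD3 and vehicle, against 46.1 and 44.6 at rest. Glycolysis genes split, with 7 of 20 up and 10 down, and the share up was near the 32.0% of all genes. Hk2, a hexokinase, had 440 CPM in both against 212 and 209 (1.06 ± 0.036), while the glucose transporter gene Slc2a3 had 196 in both against 412 and 401 (-1.05 ± 0.037). Ldha, lactate dehydrogenase, had 1690 and 1670 CPM against 1730 and 1790 (-0.07, adjusted p = 0.06, and -0.09 and called without replicate 1 of the resting TG group).

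Of 20 ER chaperone genes 17 were higher and 2 lower with anti-CD3 under TG, with a median of 0.59. Hspa5, which encodes the chaperone BiP, had 3980 and 3930 CPM in anti-CD3 TG libraries, against 1990 and 2060 in resting TG libraries (0.97 ± 0.032, adjusted p = 5.1e-33). With vehicle it had 1830 and 1900 CPM against 726 and 700 (1.39 ± 0.033). The anti-CD3 vehicle level of Hspa5 thus lay below the resting TG level. Pdia6, a disulfide isomerase, had 708 and 719 CPM against 361 and 370 under TG (0.97 ± 0.036), and Calr, calreticulin, had 2080 and 2040 against 1130 and 1190 (0.83 ± 0.034). IRE1 and XBP1 targets rose in 20 of 25 and fell in 2, with a median of 0.3. Xbp1 itself had 244 and 251 CPM against 252 and 261 (-0.05 ± 0.04), and Dnajb9, a classic XBP1 target, had 40 and 39.4 against 37.6 and 38.3 (0.06 ± 0.073), neither called. Of 11 UPR and eIF2alpha kinase genes 7 rose and 1 fell, all by less than 2-fold, but with DESeq2 4 rose and 0 fell. The gene that fell, Eif2ak2, the kinase PKR, had 31.1 and 35.1 CPM against 39.5 and 35.3 (-0.18 ± 0.077, adjusted p = 0.043), and it was not called by DESeq2 or without replicate 1 of either TG group (-0.07 and -0.09).

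ATF4 and CHOP targets, the integrated stress response, rose in 19 of 28 and fell in 2. The largest rise was in Cth, which makes cysteine, with 302 and 301 CPM in anti-CD3 TG libraries, against 44.9 and 44.7 in resting TG libraries (2.75 ± 0.049, adjusted p = 5.1e-46). With vehicle Cth had 36.8 and 39.1 CPM against 0.241 and 0.554. Atf3, a stress-induced repressor that TCR signals also induce, had 105 in both against 48.6 and 51.6 under TG (1.06 ± 0.054). Atf3 rose by 4.69 with vehicle, a difference of -3.63. Ddit3, which encodes CHOP, had 96.2 and 88.9 CPM against 69 and 74.4 (0.37 ± 0.059), and its exons overlap Mars. Trib3 had 196 and 179 CPM against 194 and 206 (-0.09 ± 0.043, adjusted p = 0.052, with -0.14 without replicate 1 of the anti-CD3 TG group and -0.13 without replicate 1 of the resting TG group, called in both). With vehicle Ddit3 and Trib3 fell, by 0.84 and 1.07 on the log2 scale. Nupr1, a stress protein of chromatin, fell under TG to 43.6 and 41.9 CPM, against 76.6 and 82.8 at rest.

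Heat shock genes of the cytosol and mitochondria rose in 11 of 12, with a median of 0.79, and 0 fell by edgeR at an adjusted or unadjusted p of 0.05 or by DESeq2. Hspd1, the mitochondrial chaperonin HSP60, had 683 and 687 CPM in anti-CD3 TG libraries, against 247 and 253 in resting TG libraries (1.46 ± 0.038). It overlaps Hspe1. Hsp90aa1 had 496 and 504 CPM against 233 and 218 (1.15 ± 0.039), and the inducible Hspa1b had 8.01 and 6.96 against 0.978 and 0.516 (3.27 ± 0.28), where its copy Hspa1a makes the count uncertain.

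**Figure D3:**
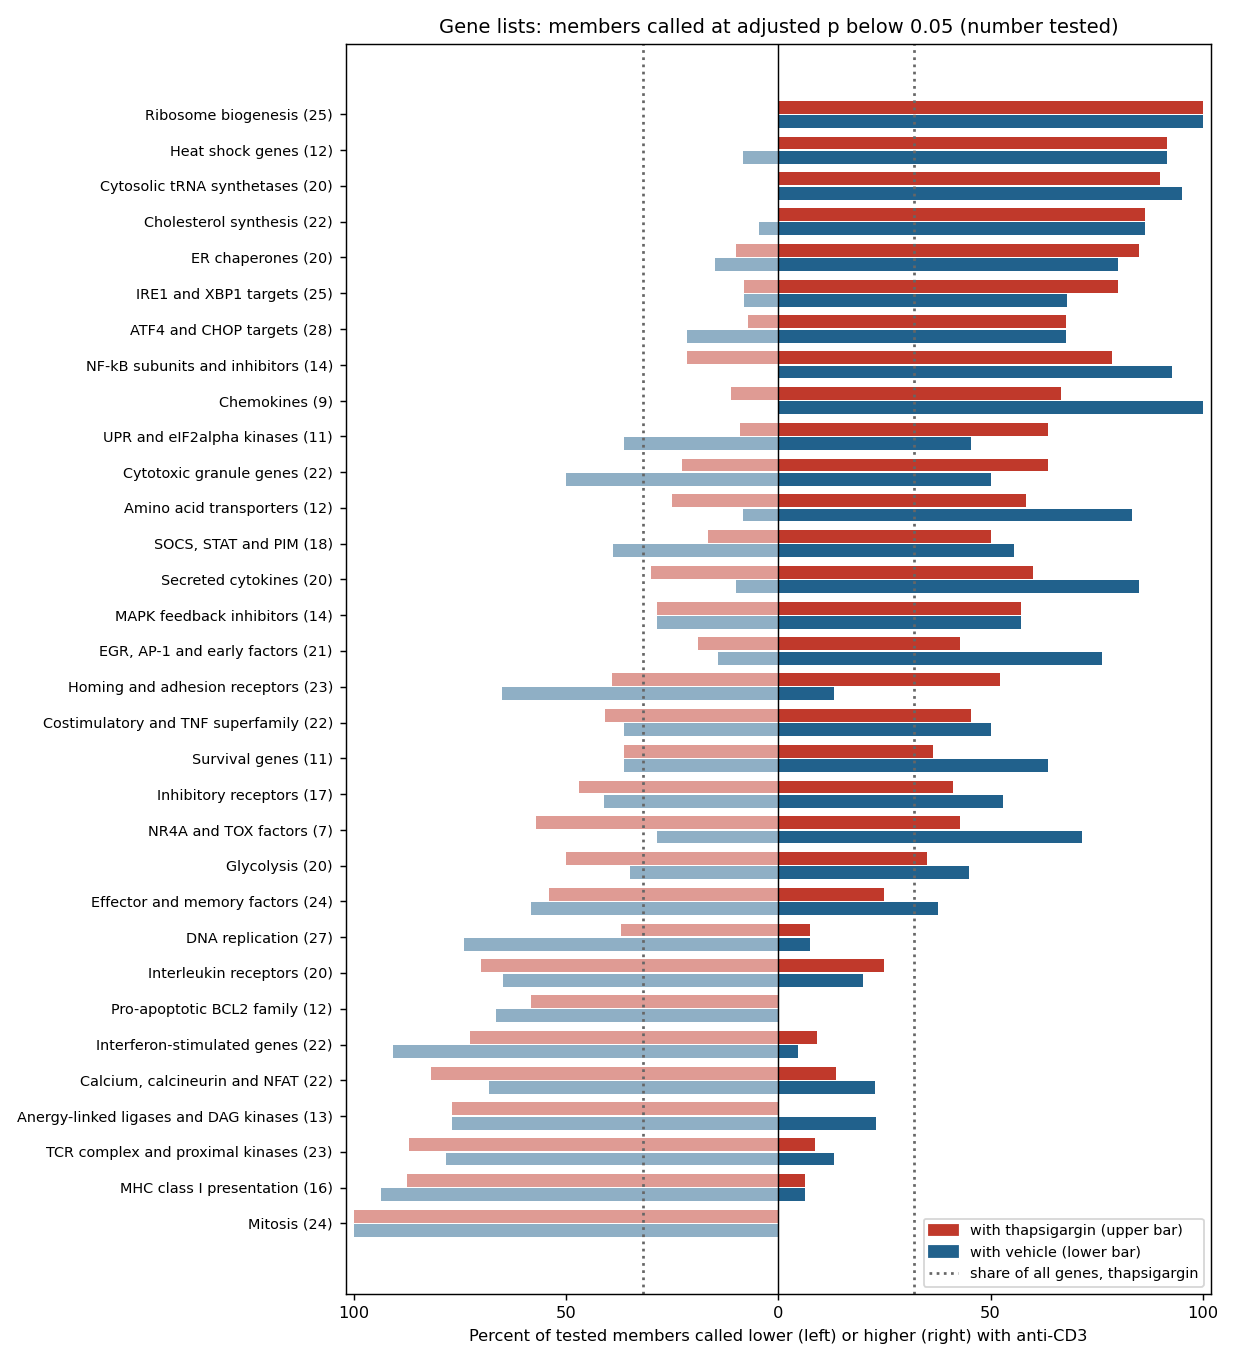
Percent of the tested members of each gene list called lower (left) or higher (right) with anti-CD3, under TG (upper bar of each pair) and with vehicle (lower bar). The number tested is in brackets, and the share of all genes under TG is dotted (32.0% higher, 31.9% lower). Of the 35 lists, T cell identity, markers of other cells and mitochondrially encoded mRNA are not drawn. Ribosome biogenesis stands at 25 of 25 higher and mitosis at 24 of 24 lower in both comparisons, while homing receptors were 12 of 23 higher under TG against 3 with vehicle.

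Mitosis genes fell. All 24 tested were lower in anti-CD3 TG libraries, 12 of them by at least 2-fold, with a median of -0.97. With vehicle all 24 were also lower, 5 by at least 2-fold, with a median of -0.83. Mki67, the proliferation marker Ki-67, had 111 and 123 CPM with anti-CD3 and TG, against 350 and 343 at rest with TG (-1.57 ± 0.098, adjusted p = 3.9e-06). Cenpa, the centromere histone, had 62 and 61.9 CPM against 210 and 209 (-1.76 ± 0.049), and Plk1, a mitotic kinase, had 15.4 and 12.2 against 32.1 and 34.9. DNA replication genes had 2 of 27 up, 10 down and 15 not called, and the share lower was near the 31.9% of all genes. Cdt1, which licenses origins, had 18.2 and 13.7 CPM against 37.3 and 35.9 (-1.21 ± 0.093). Tyms, thymidylate synthase, had 30.2 and 30.8 CPM against 19 and 19.6 (0.66 ± 0.084).

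Pro-apoptotic BCL2 family genes fell in 7 of 12, and 0 rose by edgeR at an adjusted or unadjusted p of 0.05 or by DESeq2. Bcl2l11, which encodes BIM, had 57.9 and 57.5 CPM in anti-CD3 TG libraries, against 223 and 209 in resting TG libraries (-1.91 ± 0.048, adjusted p = 5.7e-39). Bmf had 4.52 and 4.74 CPM against 17.1 and 17.8 (-1.91 ± 0.15). Survival genes had 4 of 11 up and 4 down, both near the shares of all genes (32.0% and 31.9%). Bcl2l1, the gene of BCL-XL, had 135 and 132 CPM against 41 and 44.2 (1.65 ± 0.052), while Bcl2 had 425 and 445 against 715 and 713 (-0.71 ± 0.035). Mcl1 had 254 and 253 CPM against 265 and 263 (-0.06 ± 0.038, adjusted p = 0.2).

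Interferon-stimulated genes fell in 16 of 22 and rose in 2 (1 with DESeq2), with a median of -1.2, although Ifng itself rose. Iigp1, an immunity GTPase, had 9.46 and 9.03 CPM in anti-CD3 TG libraries, against 172 and 184 in resting TG libraries (-4.27 ± 0.073, adjusted p = 6.8e-47). Gbp2, a guanylate-binding protein, had 99.7 and 98.4 CPM against 579 and 582 (-2.55 ± 0.041), and Irf1 had 29.5 and 29.4 against 109 in both (-1.89 ± 0.062). With vehicle the changes were -4.13, -3.09 and -2.66, so all 3 fell there too. The receptor gene Ifngr1 had a mean of 70.1 CPM with anti-CD3 and TG, against 148 at rest with TG (-1.08). MHC class I presentation genes fell in 14 of 16 and rose in 1. Nlrc5, the transactivator of class I genes, had 214 and 219 CPM against 544 and 540 (-1.32 ± 0.047), and Tapbp, tapasin, had 117 and 109 against 245 and 246 (-1.12 ± 0.044). The 1 that rose was H2-T23, by 0.22, and class I genes with close copies are counted in part.

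Homing and adhesion receptors rose in 12 of 23 and fell in 9 under TG, with a median of 0.27, against 3 and 15 and a median of -0.79 with vehicle. 16 of the 23 differences were positive and called, beside 26.7% of all genes. Ccr7, the receptor that takes T cells to lymph nodes, had 371 and 349 CPM in anti-CD3 TG libraries, against 75.7 and 80.5 in resting TG libraries (2.2 ± 0.045). Ccr4 had 19 and 23.4 CPM against 2.18 and 2.07 (3.32 ± 0.15). In vehicle cells Ccr4 had 228 and 223 CPM against 52.4 and 50.8 (2.13 ± 0.051). Itgae, the gene of the tissue-residence integrin CD103, had 1.19 and 1.07 CPM against 22.9 and 25.7, a fall of 21.3-fold (-4.41 ± 0.18). Ccr2, a receptor for inflammatory chemokines, had 93.4 and 94 CPM against 66 and 58.1 with TG (0.59 ± 0.053). With vehicle Ccr2 had 88.3 and 89.5 CPM against 759 and 720 (-3.06 ± 0.043), so the anti-CD3 levels were alike while the resting levels were not. S1pr1, the exit receptor of lymph nodes, had 4.69 and 5.97 CPM against 3.99 and 4.56 (0.33 ± 0.19, adjusted p = 0.12), and 0.51 and called without replicate 1 of the anti-CD3 TG group.

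**Figure D4:**
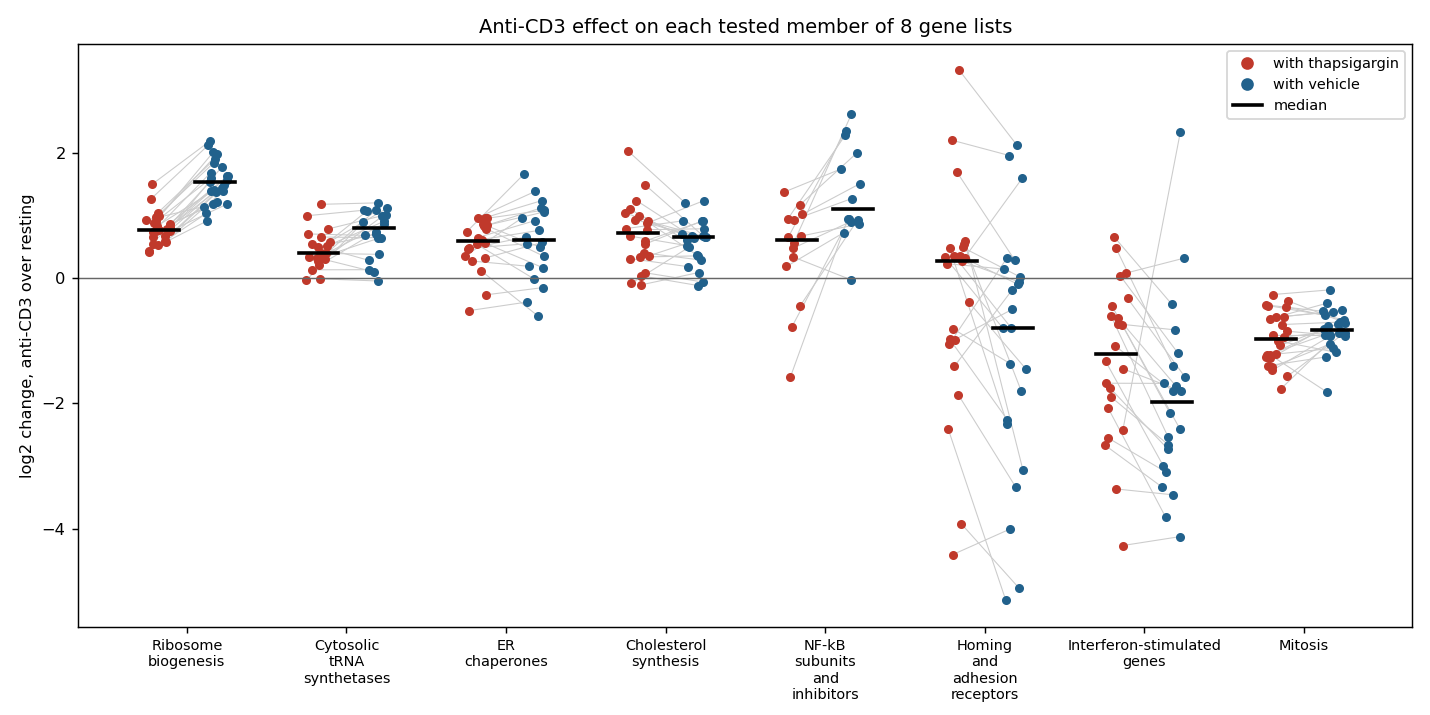
Fitted log2 change with anti-CD3 over resting for each tested member of 8 gene lists, under TG (red, left) and with vehicle (blue, right), with grey lines joining the same gene and black bars at the medians. Medians under TG against vehicle were 0.78 and 1.54 for ribosome biogenesis, 0.27 and -0.79 for homing receptors, -1.2 and -1.97 for interferon-stimulated genes and -0.97 and -0.83 for mitosis.

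Effector and memory factors fell in 13 of 24 and rose in 6. Tcf7, the gene of TCF-1, a factor of memory cells, had 25.8 and 24.8 CPM in anti-CD3 TG libraries, against 80.5 and 85 in resting TG libraries (-1.71 ± 0.07). Id3, another memory factor, had 0.426 and 0.536 CPM against 5.27 and 3.96 (-3.24 ± 0.34). Id2, its counterpart in effector cells, had 107 and 106 CPM against 75.9 and 72.6 with TG (0.52 ± 0.047), and 440 and 451 against 703 and 683 with vehicle (-0.64 ± 0.035). Zeb2, a factor of terminal effectors, had 108 and 115 CPM against 39.6 in both (1.49 ± 0.058), and 83.7 and 79.7 against 2.17 and 2.31 with vehicle. The T-box factor genes fell, Eomes with 28.9 and 25.9 CPM against 56.7 and 57.5 and Tbx21 with 83.1 and 75.4 against 96.7 and 97.3.

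Among genes with at least 10 CPM in the higher group, the largest falls were mostly in other gene classes. Tbc1d4 (chr14:101442360-101609191), a Rab regulator of glucose transporter traffic, had 13 and 13.5 CPM in anti-CD3 TG libraries, against 283 and 293 in resting TG libraries, a fall of 21.7-fold (-4.44 ± 0.063, adjusted p = 1.4e-50). Vehicle cells had 2.39 and 2.35 CPM against 17.6 and 19.9. Kcnh3, a potassium channel gene whose exons overlap Mcrs1, had 0.341 and 0.383 CPM against 11.4 and 11.3 (-4.93 ± 0.31), and with vehicle at most 0.185 in any library. Tnfaip2 had 3.41 and 3.14 CPM against 62.3 and 63.3 (-4.26 ± 0.12), and with vehicle at most 0.369. Gbp11, of the guanylate-binding protein family and annotated as a polymorphic pseudogene, had 1.88 and 1.84 CPM against 48.4 and 47.9 (-4.69 ± 0.14). Hsd11b1, which activates glucocorticoids, had 0.256 and 0.842 CPM against 9.78 and 10.3 (-4.13 ± 0.26). Arap3 and Mical2 fell by 4.54 and 4.05 on the log2 scale. Kcnh3 and Tnfaip2 were thus near absent with vehicle, and Gbp11 and Hsd11b1 fell with vehicle too, by 4.37 and 4.63.

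Across 13432 genes the changes under TG and with vehicle had Pearson r = 0.655 and Spearman rho = 0.649. Genes are not independent replicates, and both sets share the fit, so this is a description with no p. The SD of the log2 changes was 1.026 under TG and 1.419 with vehicle. With vehicle anti-CD3 raised 4740 genes (35.3%) and lowered 5250 (39.1%). 3155 genes rose in both, which is 73.4% of those raised under TG and 66.6% of those raised with vehicle. 3112 fell in both, 72.7% and 59.3%. 470 rose under TG and fell with vehicle, and 382 fell under TG and rose with vehicle. The 1639 genes raised at least 2-fold with vehicle, chosen on that change, had a median of 0.7 under TG and 1.56 with vehicle. The 2116 lowered at least 2-fold with vehicle had -0.86 and -1.7. The 756 raised at least 2-fold under TG had 1.57 under TG and 1.67 with vehicle.

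The effect of anti-CD3 itself differed between TG and vehicle, by a test of the difference, in 3588 genes with a positive difference (26.7%) and 3383 with a negative one (25.2%), together 51.9%. Which sign was in excess changed with the setting, for example to 2871 positive and 3838 negative with no filter on low counts, and to 2844 and 3439 or 2920 and 3566 without replicate 1 or 2 of the resting TG group. Differences of at least 2-fold made up 7.07% (positive) and 6.44% (negative). Among the largest positive ones, Sgk1, a kinase of salt and hormone responses, had 50.2 and 47.2 CPM in anti-CD3 TG libraries, against 16 and 14.9 in resting TG libraries (1.65 ± 0.082). With vehicle it had 12 and 12.1 CPM against 62.5 and 61.2 (-2.36 ± 0.08), a difference of 4.01 ± 0.12 (adjusted p = 1.3e-35). Cd1d1, which presents lipids to NKT cells, had 11.5 and 14.5 CPM against 4.06 and 3.7 with TG (1.75 ± 0.17), and 1.52 and 0.833 against 4.1 and 5.08 with vehicle. Dtx1, a Notch-linked ubiquitin ligase, had 0.682 and 0.689 CPM against 1.13 and 0.689 with TG and 0.933 and 1.51 against 18.8 and 20.3 with vehicle. Only its resting vehicle libraries were high.

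Among the largest negative differences, Lad1, a filament-anchoring protein better known in epithelium, had 99.8 and 92.8 CPM in anti-CD3 TG libraries, against 19.3 and 22.6 in resting TG libraries (2.21 ± 0.071). With vehicle it had 94.7 and 96.3 CPM against 2 counts in all (ratio interval 307 to 9170). Rbpms2, an RNA-binding protein, had 37.6 and 33.6 CPM against 27.5 and 25.5 with TG (0.42 ± 0.085), and 9.27 and 8.78 against no count with vehicle, at least 70.2-fold. Slc1a2, a glutamate transporter, had 2.3 and 2.6 CPM against 0.376 and 0.172 with TG (3.09 ± 0.44), and 12.3 and 11.7 against no count with vehicle, at least 93.5-fold. Ccl3 had 1400 and 1450 CPM with anti-CD3 and vehicle, against 2.01 and 3.69 at rest, so the anti-CD3 levels with TG and vehicle were close and the resting levels were not. Secreted cytokine genes had 12 of 20 negative and 2 positive differences, and chemokine genes 7 of 9 negative and 0 positive (0 also at an unadjusted p of 0.05 by edgeR and by DESeq2). With genes that have no count at rest set to their bounds, the vehicle medians were 3.47 for cytokines and 6.39 for chemokines, against 1.96 and 2.08 under TG.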

How the data were processed

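Total RNA was extracted with Trizol and sequenced from Illumina libraries, per the labels' protocols. Per the submitters' processing notes, STAR 2.6.0c, HTSeq and GRCm38/mm10 were used; strand, annotation release and filters are not given in the sources used here. The deposited values are raw gene counts. Of 46603 identifiers, 46005 were named from GENCODE annotation of GRCm38. The 598 others held 0.0759% of the counts and stayed in the depths and the fit under their identifiers. Multi-mapped reads are dropped by HTSeq, which lowers the counts of close paralogs.

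Counts of 12 T cell libraries (6 groups of 2, including Atp2a2 knockout cells) were fitted in R 4.3.3 with edgeR 4.0.16 (trimmed mean of M values, filterByExpr, robust quasi-likelihood test, 6 residual degrees of freedom, common biological coefficient of variation 2.8%) and limma 3.58.1. The knockout libraries entered the filter, the scaling and the estimate of the spread, but none of the contrasts. Contrasts were anti-CD3 against resting with thapsigargin, the same with vehicle, and their difference. Genes were called at an adjusted p of 0.05. A group with no count was given a bound against 3 counts over the group, and one with 1 to 3 counts a 95% exact binomial interval. In each of the 6 groups the 2 libraries differed beyond sampling noise. Libraries made separately from the same culture can differ in this way too, so this does not show that the cultures were separate. Each library entered the fit as a sample. The fit was also run on simulated data, but no result of that run is given here, so nothing is concluded from it.

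The genes named are Atp2a2, Atp2a3, the 12 largest called rises and 12 falls with no overlap and a mean of 10 CPM or more in the higher group, up to 6 called members per list with the largest changes, the 8 largest differences each way, and a fixed panel. Il13, Lif, Osm, Relb, Cd6, Ppp3r1, Cblb, Il21r, Il12rb2, Slc1a5, Slc38a2, Ifngr1 and H2-T23 fall outside this rule and were chosen after their values were seen. Some genes that the rule picks are not reported here. The comparison, the 35 gene lists and the panel were chosen with earlier results of these data known. The settings varied were the tool (DESeq2 1.42.0), the scaling (relative log expression), the filter, a replicate term, fewer groups, a fit without robust moderation and each library left out.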

Additional observations from a re-analysis of the deposited data

Results flagged for a closer look

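Each result here was picked out because the effect of anti-CD3 differed between thapsigargin (TG) and vehicle by a test of the difference itself (edgeR's quasi-likelihood test, Benjamini-Hochberg adjusted over 13432 genes). Values are differences of log2 changes, TG minus vehicle, and most of these genes were chosen for their size. In all 3588 genes had a positive and 3383 a negative difference.

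For secreted factors the difference was -8.5 for Xcl1, -7.7 for Ccl1, -6.81 for Ccl3, -6.29 for Il3, -6.21 for Ifng, -4.78 for Ccl4, -4.06 for Csf2 and -1.71 for Tnf. In this group Tnf fell under TG, Ccl1 and Csf2 were not called there, and the others rose.

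For transcription factors it was -5.31 for Egr2, -5.14 for Nr4a2, -5.07 for Egr3, -4.68 for Nr4a1, -3.92 for Nr4a3, -3.69 for Zeb2 and -2.58 for Irf4. For surface and signalling proteins it was -5.79 for Nrgn, -4.31 for Cd200, -3.98 for Tnfsf14, -3.21 for Tnfrsf4, -0.99 for Il2ra, -0.91 for Cd8a and -0.42 for Hspa5, the chaperone gene.

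Positive differences were 4.01 for Sgk1, 3.72 for Sntb1, 3.66 for Ret, 3.65 for Ccr2, 3.64 for Cd1d1, 3.61 for Dtx1 and 3.6 for Ahnak2. In Ret, Sntb1, Dtx1 and Ahnak2 the resting vehicle libraries were the high ones (16 and 16.1 CPM for Ret, 12.5 in both for Sntb1). Without replicate 1 of the resting TG group, Sntb1 changed by -0.78 under TG and was not called there. Smaller ones were 1.23 for Icos, 1.06 for Gzmb, 0.84 for Idi1, 0.74 for Ctla4 and 0.59 for Fdps, which rose under TG.

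Genes with 3 counts or fewer in a group are given by their adjusted p alone: 1.5e-27 for Lad1, 8.3e-19 for Rbpms2 and 4.3e-05 for Slc1a2, all with a negative difference, and 0.024 for Klhl30 with a positive one.

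By list, a negative difference was called in 25 of 25 ribosome biogenesis genes, 13 of 14 NF-kB genes, 12 of 20 secreted cytokine genes and 7 of 9 chemokine genes. The share of all genes was 25.2%. A positive difference was called in 16 of 23 homing and adhesion receptors and 14 of 22 interferon-stimulated genes, beside 26.7% of all genes.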

How the results depend on the processing

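Under thapsigargin (TG) the counts of 4296 genes raised and 4280 lowered were 3510 and 3510 with DESeq2, 4281 and 4254 with a replicate block, and between 3808 and 4085 raised and between 3769 and 3976 lowered with each library left out. The difference between TG and vehicle was called in 2556 genes (positive) and 2686 (negative) with DESeq2, and in 3557 and 3360 with the replicate block. The slight excess of positive differences in the report (51.5%) turned into an excess of negative ones in 5 fits: DESeq2 (48.8% positive), relative log expression scaling (3428 and 3557, 49.1%), no filter on low counts (2871 and 3838, 42.8%), and without resting TG replicate 1 (2844 and 3439, 45.3%) or 2 (2920 and 3566, 45.0%). Over all libraries left out, positive counts were between 2844 and 3409 and negative ones between 3057 and 3566. Replicate numbers did not pair the libraries (correlations of deviations between -0.109 and 0.109), and the block changed the call of none of 257 named genes.

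Among counts over all genes, 3 moved by more than 1.5 times, each with a filter of 5 CPM in 2 libraries, which tests fewer genes (10580). They were 468 genes raised and 845 lowered at least 2-fold under TG, and 565 with a negative difference of at least 2-fold. The change under TG reversed in 0 of the 245 named genes called in the main fit, in the alternatives run that tested them. List counts also moved: with DESeq2, MAPK feedback inhibitors had 2 lower, UPR and eIF2alpha kinase genes 4 higher and 0 lower, interferon-stimulated genes 1 higher and markers of other cells 0 higher; the cause was not tested. Of 257 named genes between 247 and 255 kept their side of the threshold with a TG library left out. With 2 libraries a group, the fit had 6 residual degrees of freedom, beside a median of 47.3 from the prior shared across genes. Calls of small changes thus rest mostly on a spread borrowed from other genes.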

Other observations

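Il17a, the gene of interleukin 17A, had 5 and 13 counts in the anti-CD3 libraries with thapsigargin and no count in the resting libraries with thapsigargin or in any of the 4 vehicle libraries of control cells. It was too low for the test.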
